A study of Homo sapiens with 6 samples.

Results

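Interferon-stimulated genes are the transcripts that cells raise after they sense interferon, a secreted antiviral cytokine. The set described here holds 49 human genes of this class, named by symbol and matched to the Ensembl identifiers of the count table, and all 49 were found among the 39168 identifiers of that table. RNA was sequenced from CAL62 cells, an established line of anaplastic thyroid carcinoma, treated for 48 h with erianin at 50 nM or with its solvent, DMSO, in 3 libraries per group. Erianin is a bibenzyl compound from Dendrobium orchids. No genotype or other agent separates the groups, and the cells are a single cell line. The comparison asks which of the 49 transcripts differed between erianin and DMSO.

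Type I interferons bind a receptor whose associated kinases, JAK1 and TYK2, phosphorylate STAT proteins. STAT2 and IRF9 are parts of the complex ISGF3, which binds the interferon-stimulated response element (ISRE) in the promoters of its targets. The targets include sensors of foreign RNA, restriction factors that block viral entry or replication, the ubiquitin-like protein ISG15 with its conjugating enzymes, and USP18, which dampens the receptor. Interferon gamma acts on a different element, GAS. Tumour cell lines can hold part of this programme at a basal level without added interferon.

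The promoters of the set were first searched for these elements. The genes were listed by symbol as interferon-stimulated, so a high share of these elements describes the list and is no independent result. In the RefSeq promoter table (GRCh38.p14, 250 bases before to 50 bases after each gene start), 40 of the 49 genes matched, with 55 promoters. The ISRE core, written GAAA, NN, GAAA (NN being any pair of bases) or TTTC, NN, TTTC on the other strand, was present in 31 of the 55 promoters (56.4%), against 3.57% of all 35116 promoters. The GAS letters TTCNNNGAA, which read the same on both strands, were present in 12 promoters (21.8%), against 7.66% of all promoters. In 6 promoters an ISRE match and a GAS match overlapped. Counted by gene, 27 of the 40 (67.5%) had an ISRE core in any promoter, against 4.38% of all genes. USP18 and IFIT2 had no entry in the promoter table, and no ISRE core was found in the promoters of SP100, IRF9 or MAVS. Each stretch below is read 5′ to 3′ on the strand of its gene, with the ISRE core in capitals. The stretches are examples from genes with a match and not a full list. They are RSAD2 (chr2:6877617-6877656, plus strand, at the downstream of its 2 RefSeq starts), ISG15 (chr1:1013369-1013414, plus strand), IFI6 (chr1:27672261-27672363, minus strand), IFIT1 (chr10:89392492-89392544, plus strand), IFITM3 (chr11:320871-320927, minus strand), LGALS3BP (chr17:78979957-78979996, minus strand), IFI44L (chr1:78620269-78620399, plus strand) and the feedback inhibitor SOCS1 (chr16:11256293-11256332, minus strand).
RSAD2: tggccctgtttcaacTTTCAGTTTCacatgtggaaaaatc
ISG15: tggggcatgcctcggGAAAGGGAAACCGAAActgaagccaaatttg
IFI6: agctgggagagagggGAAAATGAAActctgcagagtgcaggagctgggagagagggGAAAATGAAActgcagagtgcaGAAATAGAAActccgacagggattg
IFIT1: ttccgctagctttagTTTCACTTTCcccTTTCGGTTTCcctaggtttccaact
IFITM3: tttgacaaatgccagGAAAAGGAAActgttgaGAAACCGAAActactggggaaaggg
LGALS3BP: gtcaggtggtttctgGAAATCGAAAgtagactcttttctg
IFI44L: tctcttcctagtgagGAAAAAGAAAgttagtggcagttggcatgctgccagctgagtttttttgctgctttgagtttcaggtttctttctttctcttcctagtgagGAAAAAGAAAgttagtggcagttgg
SOCS1: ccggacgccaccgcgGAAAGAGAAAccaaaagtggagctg

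The first base of the match lay 145 bases upstream of the start in RSAD2, 113 in SOCS1 and 58 in LGALS3BP. IFI6 held 3 matches, the farthest 156 and the nearest 93 bases upstream, and in ISG15 a pair of overlapping matches began 113 and 107 bases upstream. A match describes the letters of the window and does not show that a factor bound there.

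Reads counted on named genes ranged from 25776301 to 34107727 per library, and 12821 genes passed the low-count filter of edgeR. DMSO replicate 3 stood apart: its Euclidean distance to the other DMSO libraries was 65.7 to 67.8 over the log2 CPM (counts scaled to library size) of all tested genes, against 41.3 between DMSO replicates 1 and 2, and edgeR's biological coefficient of variation was 0.139 with it and 0.0421 without it. Results that rest on this library are given with and without it. Of the epithelial markers, KRT8, KRT18, KRT19 and EPCAM had a mean TPM (counts scaled by gene length and library total) of at least 1 and CDH1 did not. Of 7 thyroid follicular markers, only PAX8 and FOXE1 reached that level, and TSHR and NKX2-1 had no counts, so most defining markers of thyroid follicular cells were absent or nearly so. The 6 leukocyte markers summed to 2.02 to 3.46 TPM in DMSO and 3.65 to 5.57 TPM in erianin, most of it CD14. The part of these markers in the results was not tested.

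The basal level of the 49 genes spanned a wide range (the plot of transcript levels). On the TPM scale the mean over the 6 libraries ran from 0.00511 for XAF1 to 1485 for IFITM3. Of the 49, 6 had a mean of at least 100 TPM, 22 lay between 10 and 100, 13 between 1 and 10, and 8 below 1. The abundant 6 were IFITM3, BST2, IFITM2, ISG15, IFITM1 and UBE2L6. BST2, or tetherin, which holds budding virus particles at the cell surface, had a mean of 1133 TPM. After library scaling, the 49 genes together summed to 3278 to 3436 CPM in DMSO and 3167 to 3278 CPM in erianin. In bulk RNA, fewer cells with a transcript and less of it per cell cannot be told apart.

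**Figure D1:**
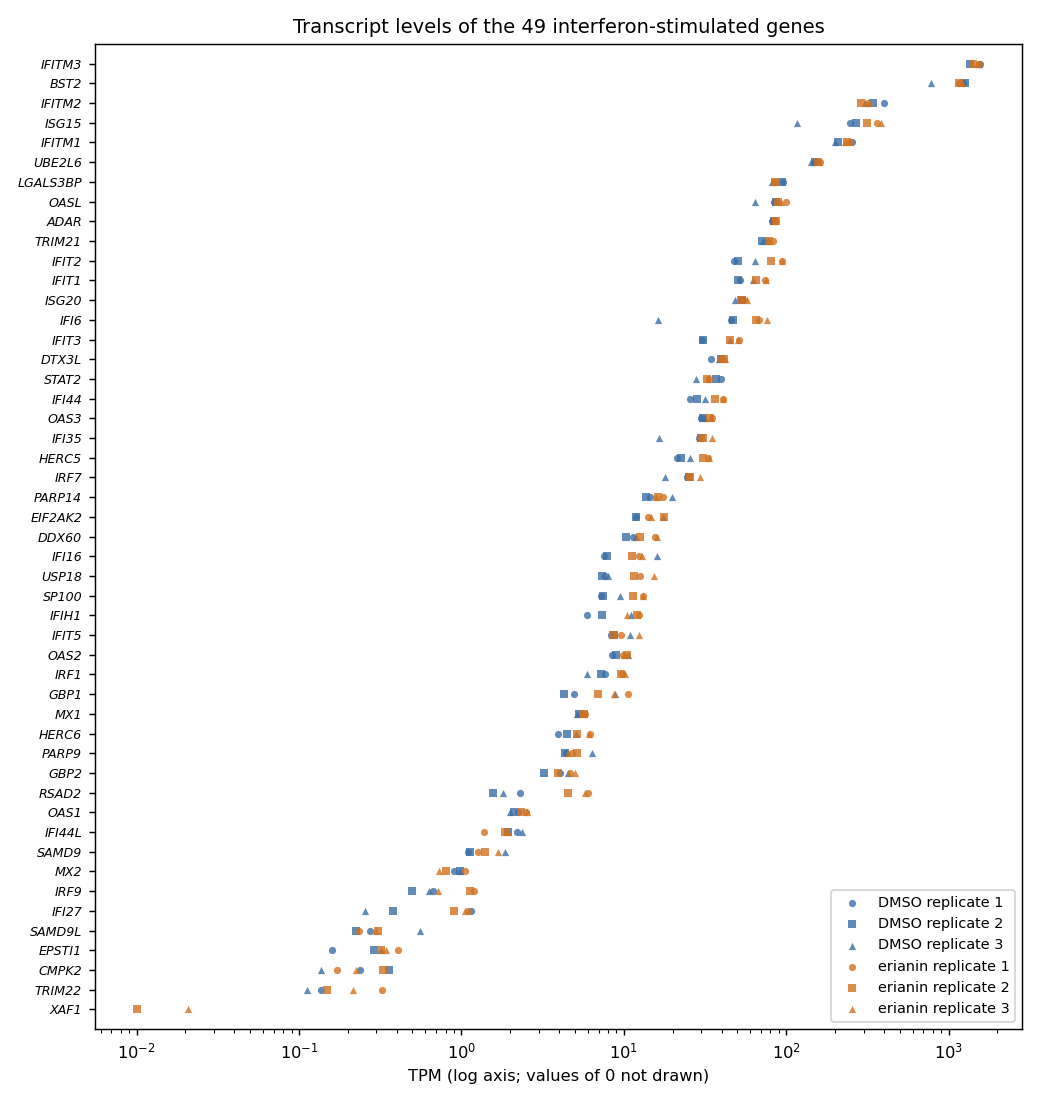
Level of each of the 49 genes in each library, in TPM on a log axis, with DMSO in blue, erianin in orange and a symbol for each replicate; values of 0 are not drawn. IFITM3 and BST2 stand highest and XAF1 lowest, and for most genes the 6 libraries lie close together beside the spread between genes.

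Among the tested genes of the set, RSAD2 was higher with erianin past the call and the median difference was near 0. A gene was called at a Benjamini-Hochberg adjusted p under 0.05 in edgeR's quasi-likelihood test and an absolute log2 fold change over 0.5. Of the 49 genes, 47 passed the low-count filter, and TRIM22 and XAF1 did not. Only RSAD2 was called higher with erianin, which is 2.13% of the 47, against 5.37% of all tested genes, and none was called lower, against 3.36%. DESeq2 called 3 higher, against 6.65% of all genes, and 1 lower, against 4.14%. At an adjusted p under 0.05 in edgeR whatever the fold, 1 gene of the 47 was higher and 2 lower, against 7.22% and 7.69% of all tested genes. The log2 fold change was above 0 in 22 genes and below 0 in 25. Signs near 0 depended on the scale: limma on log2(TPM + 1), where the median of all genes was 0.18 and not 0, put 36 of 41 tested genes above 0 and 5 below, with a median of 0.17, and upper-quartile factors put 26 above and 21 below. Over all genes the fit reported called 688 higher and 431 lower, the TPM fit 1098 and 94, and upper-quartile factors 822 and 299. In the fit reported, the median over the 47 was -0.0040, beside 0.0014 over all genes tested, and values ran from -0.56 for SAMD9L to 1.33 for RSAD2. At an unadjusted p under 0.05 in edgeR, 7 genes were higher and 4 lower, against 15.3% and 15.6% of all tested genes. The CPM of the groups did not overlap in 8 genes higher with erianin and in 8 lower, 17.0% of the 47 each way, against 19.5% and 19.3% of all tested genes. The shares of the set that were higher at the unadjusted threshold, or did not overlap in either direction, were thus close to those of all genes. In edgeR its shares past the call were below them, but these rest on 1 gene and 0 genes. In DESeq2 the share of the set called higher was 6.38%, close to the 6.65% of all genes. The share lower at the unadjusted threshold, 4 genes of the 47, was also below that of all genes. These differences from the shares of all genes were not tested.

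**Figure D2:**
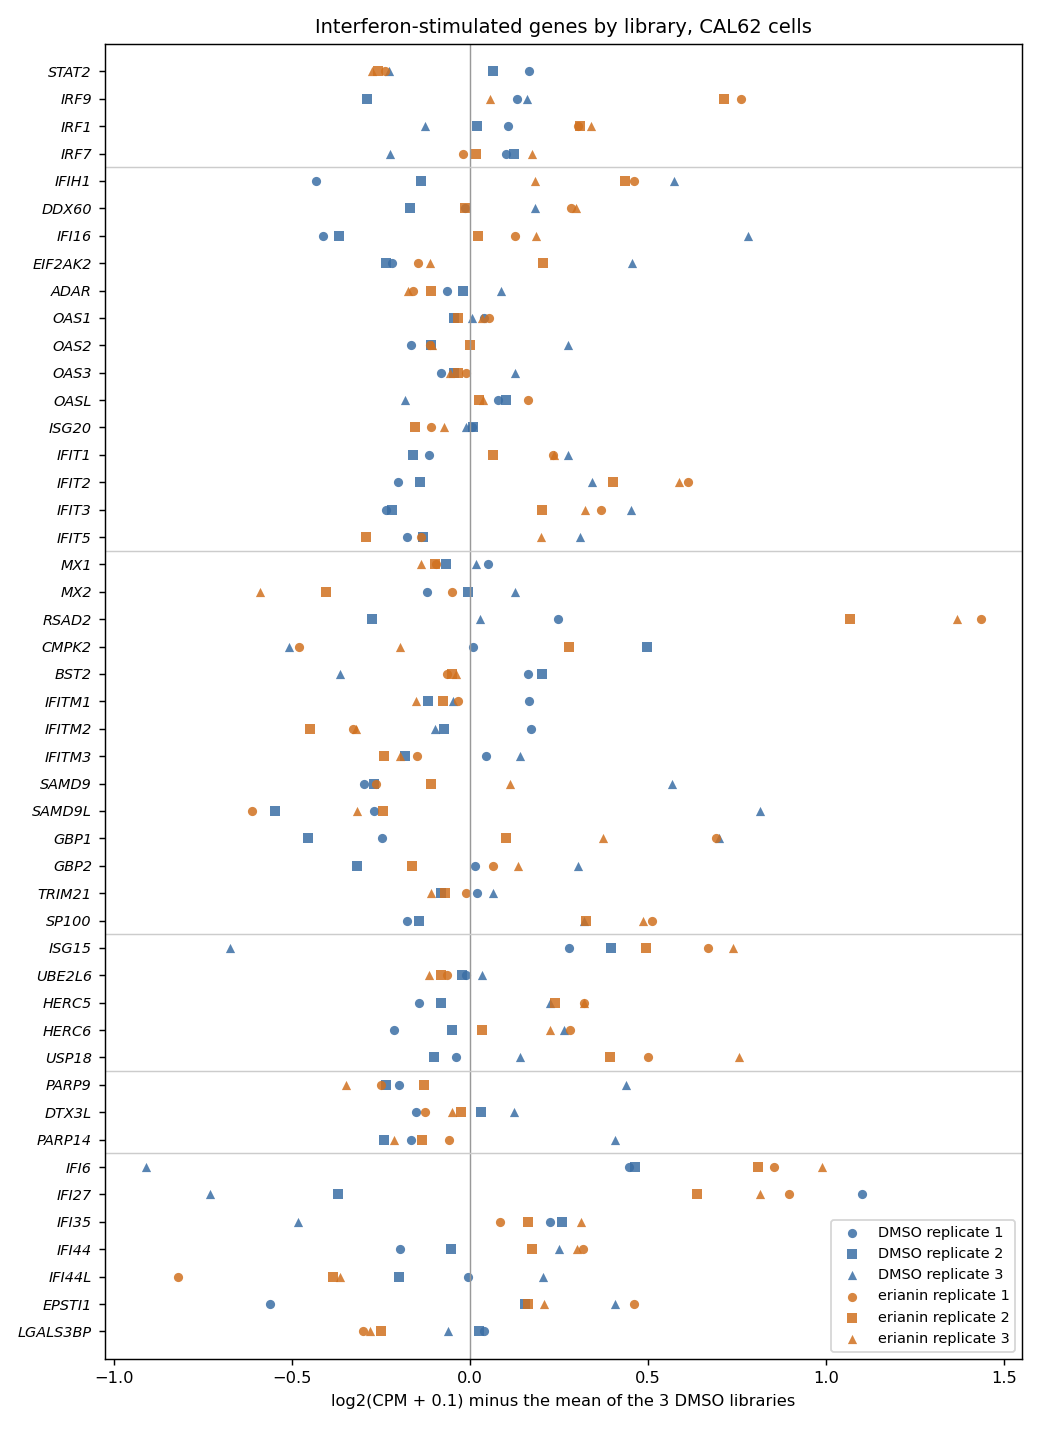
Each tested gene of the set in each library, as log2(CPM + 0.1) minus the mean of the 3 DMSO libraries, with DMSO in blue, erianin in orange, a symbol for each replicate and lines between the roles. The 3 erianin points of RSAD2 lie far right of all DMSO points, while for most genes the groups overlap and DMSO replicate 3 is most often the highest or the lowest blue point.

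RSAD2 encodes viperin, a radical SAM enzyme that makes a chain-terminating nucleotide against viral polymerases. It lies at chr2:6865806-6898239 on the plus strand (GRCh38, GENCODE 29). With replicates in order here and below, its counts were 55, 50 and 60 in DMSO and 180, 142 and 176 in erianin. In CPM these were 2.26, 1.54 and 1.93 against 5.27, 4.06 and 5.02. Every erianin library thus exceeded every DMSO library. The mean rose from 1.91 ± 0.359 to 4.79 ± 0.637 CPM (SD, n = 3), a ratio of 2.52, with a log2 fold change of 1.33 ± 0.20 (SE) and an adjusted p of 0.00704 in edgeR. The call held in 15 of 17 alternative fits, with log2 fold changes from 1.16 to 1.48, and was lost without erianin replicate 1 (adjusted p = 0.0525) and without erianin replicate 3 (adjusted p = 0.0515). Without DMSO replicate 3 the log2 fold change was 1.35 (edgeR adjusted p = 1.09e-06). CMPK2, a mitochondrial nucleotide kinase gene whose start lies beside that of RSAD2 on the opposite strand, had counts of 10, 20 and 8 in DMSO and 9, 18 and 12 in erianin. Its log2 fold change was -0.20 ± 0.44 (SE, edgeR adjusted p = 0.807), a gene at the edge of what this depth resolves.

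With all 6 libraries, the other restriction factors gave no call. Of the 14 tested in this role, 11 had log2 fold changes below 0, with a median of -0.10. On the TPM scale 10 of 11 were above 0 with a median of 0.13, below the shift of all genes. Without DMSO replicate 3, 7 of 15 tested were above 0 and 8 below, with a median of -0.03. In that edgeR fit 4 of the 15, RSAD2 among them, were called higher (26.7%), against 11.4% of all genes. The IFITM proteins, which sit in membranes and block the fusion of virus with the cell, are close paralogs on chromosome 11. IFITM3, the most abundant gene of the set, had 666, 569 and 711 CPM in DMSO and 582, 546 and 563 CPM in erianin, and these ranges overlapped. IFITM1 had 105, 86.2 and 90.5 CPM in DMSO and 91.4, 88.9 and 84.3 CPM in erianin, which also overlapped. IFITM2 had 251, 212 and 208 CPM in DMSO and 177, 163 and 178 CPM in erianin. Each erianin library was below each DMSO library for IFITM2, with a log2 fold change of -0.37 ± 0.09 (SE, edgeR adjusted p = 0.0363), within the test's threshold for p but short of the fold required. The corresponding log2 fold changes were -0.20 ± 0.09 for IFITM3 (edgeR adjusted p = 0.193) and -0.09 ± 0.09 for IFITM1 (edgeR adjusted p = 0.56), and on the TPM scale these were 0.0019 for IFITM3 and 0.11 for IFITM1. On that scale IFITM2 had -0.17 (limma adjusted p = 0.357), and in edgeR its adjusted p was 0.0656 to 0.156 when any library other than DMSO replicate 3 was left out. In GENCODE 29, 351 exonic bases are shared between IFITM1 and IFITM2 on the same strand, 32.5% of IFITM1 and 22.7% of IFITM2, so reads may be split between them.

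BST2 had 367, 377 and 254 CPM in DMSO and 314, 317 and 319 CPM in erianin, where DMSO replicate 3 lay below all other libraries. The log2 fold change of BST2 was -0.07 (edgeR adjusted p = 0.782) with that library and -0.24 (adjusted p = 4.92e-06) without it. MX1 and MX2, the dynamin-like GTPases that trap viral nucleocapsids, had log2 fold changes of -0.11 and -0.35 (edgeR adjusted p = 0.45 and 0.26). SP100, a scaffold of nuclear bodies that silence viral genomes, had 37.0, 37.9 and 52.2 CPM in DMSO and 59.7, 52.5 and 58.6 CPM in erianin. The groups touched without overlapping, with a log2 fold change of 0.43 ± 0.14 (SE, edgeR adjusted p = 0.0912). Without DMSO replicate 3 it was 0.60 (edgeR adjusted p = 1.92e-09). GBP1, an interferon-induced GTPase, had 6.28, 5.42 and 12.2 CPM in DMSO and 12.1, 8.01 and 9.70 CPM in erianin. Its DMSO replicate 3 alone reached the erianin levels, so that the log2 fold change was 0.32 (edgeR adjusted p = 0.543) with that library and 0.77 (adjusted p = 3.4e-05) without it. SAMD9L, a gene that restricts poxviruses together with its neighbour SAMD9, had 26, 28 and 74 counts in DMSO and 28, 38 and 36 in erianin. Its log2 fold change, the lowest of the set at -0.56 ± 0.40 (SE, edgeR adjusted p = 0.392), became 0.03 without DMSO replicate 3. GBP2 and TRIM21, a cytosolic antibody receptor and ubiquitin ligase, had log2 fold changes of -0.0040 and -0.06. TRIM22 was too low for the test, with 7, 0 and 8 counts in DMSO and 21, 10 and 14 in erianin, and the 0 allows up to 0.0924 CPM at the 3 counts a library could miss, as counting error only.

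**Figure D3:**
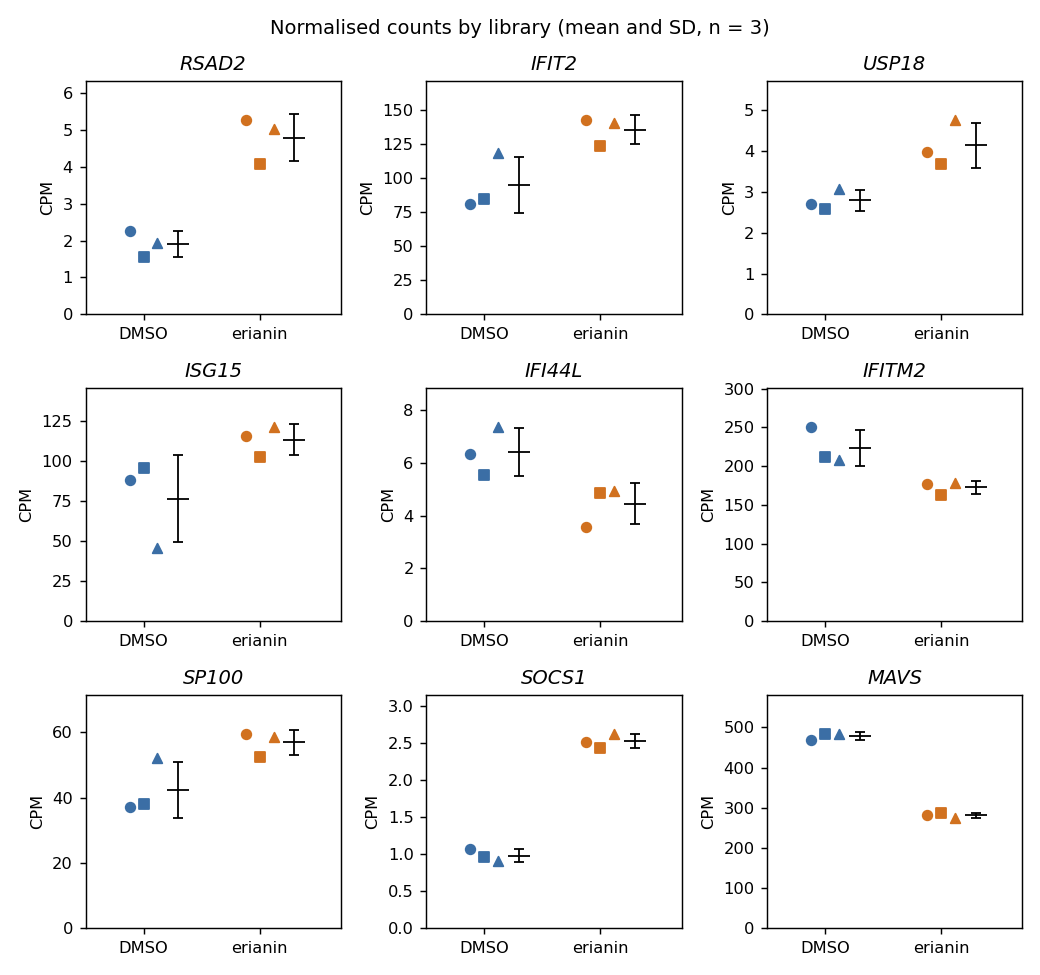
CPM in each library (circle, square and triangle for replicates 1, 2 and 3) of 9 genes, with the mean and SD of each group (n = 3) at its right, on axes that start at 0. RSAD2, USP18, IFIT2, SP100 and SOCS1 are higher in all erianin libraries and IFI44L, IFITM2 and MAVS lower, while for ISG15 the low DMSO replicate 3 widens the gap.

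The 4 transcription factors of the set changed in both directions, with log2 fold changes from -0.27 to 0.57. None of the 4 passed the call with all libraries. STAT2, a subunit of ISGF3, had 114, 106 and 86.5 CPM in DMSO and 85.9, 84.7 and 83.8 CPM in erianin. All erianin libraries lay just under the lowest DMSO library, with a log2 fold change of -0.27 ± 0.11 (SE, edgeR adjusted p = 0.139) that became -0.38 (adjusted p = 6.28e-08) without DMSO replicate 3. IRF9, the DNA-binding subunit of ISGF3, had 36, 35 and 47 counts in DMSO and 80, 79 and 49 in erianin. Erianin replicates 1 and 2 were high and replicate 3 was at the DMSO level, giving a log2 fold change of 0.57 ± 0.27 (SE, edgeR adjusted p = 0.198). Of the exonic bases of IRF9, 48.4% are shared with another annotated gene, AL136295.5, on the same strand, so its count is uncertain. IRF1, which drives genes of the interferon gamma response, had 21.7, 20.4 and 18.4 CPM in DMSO and 24.9, 25 and 25.5 CPM in erianin. The groups did not overlap, and the log2 fold change was 0.32 ± 0.10 (SE, edgeR adjusted p = 0.0702). IRF7, which amplifies type I interferon transcription, had 89.6, 90.9 and 71.4 CPM in DMSO and 82.3, 84.5 and 94.3 CPM in erianin, with a log2 fold change of 0.05 ± 0.11 (SE, edgeR adjusted p = 0.806) that changed sign, to -0.06, without DMSO replicate 3.

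Sensors of nucleic acid and proteins that act on RNA gave no call among 14 tested genes, of which 7 were above 0 and 7 below. Their median log2 fold change was 0.01. Without DMSO replicate 3, 11 were above 0 and 3 below, with a median of 0.15. In that edgeR fit 3 of the 14 were called higher (21.4%), against 11.4% of all genes. On the TPM scale, where the median of all genes was also above 0, all 14 were above 0 with a median of 0.22. The IFIT proteins bind RNA that lacks the marks of host mRNA. Their genes form a cluster on chromosome 10. IFIT2 had 81.2, 84.9 and 119 CPM in DMSO and 143, 123 and 140 CPM in erianin. All erianin libraries were higher, and the log2 fold change was 0.51 ± 0.15 (SE, edgeR adjusted p = 0.0591) with DMSO replicate 3 and 0.70 (adjusted p = 1.16e-12) without it. DESeq2 on all 6 libraries gave an adjusted p of 0.0176 for IFIT2. IFIT1 and IFIT3 had log2 fold changes of 0.17 and 0.26 (edgeR adjusted p = 0.435 and 0.397), and IFIT5 had -0.08 (edgeR adjusted p = 0.819). In IFIT1, IFIT3 and IFIT5, DMSO replicate 3 was above all erianin libraries. Without that library their log2 fold changes were 0.31, 0.52 and 0.09 (edgeR adjusted p = 3.22e-05, 2.73e-07 and 0.636). OASL, the most abundant gene of this role per length at a mean of 86.1 TPM (ADAR had 84.4 TPM), had 100, 102 and 83.8 CPM in DMSO and 106, 96.8 and 97.5 CPM in erianin, which overlapped, and a log2 fold change of 0.07 ± 0.10 (SE, edgeR adjusted p = 0.675) that was -0.02 without DMSO replicate 3. OAS1, OAS2 and OAS3 make the short oligoadenylates that switch on RNase L. Their log2 fold changes were 0.02, -0.09 and -0.04, with edgeR adjusted p-values of 0.937, 0.714 and 0.811. Without DMSO replicate 3 the log2 fold changes were 0.02, 0.06 and 0.02.

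Among the sensors, IFIH1 and IFI16 were highest in DMSO replicate 3. IFIH1, or MDA5, a cytosolic sensor of long double-stranded RNA, had 5.71, 7.02 and 11.6 CPM in DMSO and 10.7, 10.5 and 8.79 CPM in erianin. Its log2 fold change was 0.30 (edgeR adjusted p = 0.471) with DMSO replicate 3, the highest of all 6 libraries, and 0.63 (adjusted p = 9.12e-05) without it. IFI16, a nuclear DNA sensor, had 37.1, 38.3 and 84.9 CPM in DMSO and 53.9, 50.1 and 56.1 CPM in erianin. The group means were the same, 53.4 CPM each, and the log2 fold change was -0.0014 with DMSO replicate 3 and 0.50 (edgeR adjusted p = 5.82e-08) without it. EIF2AK2, the kinase PKR that halts translation on double-stranded RNA, had log2 fold changes of -0.05 with and 0.21 without that library. ADAR, which edits adenosines in double-stranded RNA, had a log2 fold change of -0.15 and ISG20, an RNA exonuclease, one of -0.11 (edgeR adjusted p = 0.193 and 0.276). DDX60, a helicase-like protein of the same RNA response, had 0.19 (edgeR adjusted p = 0.395).

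ISG15 and the enzymes that attach and remove it gave no call among 5 genes, although 4 had log2 fold changes above 0. On the TPM scale, where the median of all genes was also above 0, all 5 were. ISG15, which is joined to target proteins as ubiquitin is, had 88.0, 95.6 and 45.4 CPM in DMSO and 115, 102 and 121 CPM in erianin. The erianin libraries lay above all DMSO libraries, and DMSO replicate 3 lay far below the other DMSO libraries. The log2 fold change was 0.57 ± 0.25 (SE, edgeR adjusted p = 0.174) with that library and 0.29 (adjusted p = 4.8e-05) without it. USP18, the protease that removes ISG15 and restrains the type I receptor, had 66, 84 and 96 counts in DMSO and 136, 129 and 167 in erianin. In CPM these were 2.71, 2.59 and 3.08 against 3.98, 3.69 and 4.77, with no overlap. The log2 fold change of USP18 was 0.57 ± 0.17 (SE, edgeR adjusted p = 0.0586), just outside the threshold, and 0.64 (adjusted p = 0.00398) without DMSO replicate 3. HERC5, the main ligase for ISG15 in human cells, had 39.6, 41.3 and 51.2 CPM in DMSO and 54.6, 51.7 and 54.7 CPM in erianin, which did not overlap, with a log2 fold change of 0.28 (edgeR adjusted p = 0.134). HERC6, its close relative, had 0.17, and UBE2L6, the conjugating enzyme for ISG15, had -0.09.

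PARP9 and DTX3L form a complex that joins ADP-ribosylation to ubiquitin transfer, and PARP14 is a related transferase. The log2 fold changes of all 3 were below 0 and none passed the test. On the TPM scale, where the median of all genes was above 0, 2 were above 0 and 1 below. PARP9 had 15.5, 15.1 and 24.2 CPM in DMSO and 15, 16.3 and 14 CPM in erianin, and only DMSO replicate 3 stood off. The log2 fold change of PARP9 was -0.28 ± 0.19 (SE, edgeR adjusted p = 0.374) with that library and -0.02 without it. DTX3L had 37.6, 42.6 and 45.5 CPM in DMSO and 38.2, 41.0 and 40.3 CPM in erianin, with a log2 fold change of -0.07. PARP14 had a log2 fold change of -0.16. Without DMSO replicate 3 these were -0.02 for DTX3L and 0.07 for PARP14.

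Of the remaining interferon-induced genes, 5 of the 7 tested had log2 fold changes above 0 and 2 below. IFI6, an inhibitor of apoptosis at mitochondria and of viral replication at the endoplasmic reticulum, had 19.0, 19.2 and 7.35 CPM in DMSO and 25.2, 24.4 and 27.7 CPM in erianin. The groups did not overlap. Its log2 fold change was 0.77 ± 0.32 (SE, edgeR adjusted p = 0.155) with DMSO replicate 3, which held the lowest value, and 0.43 (adjusted p = 3.61e-05) without it. IFI44 and IFI44L are neighbouring paralogs on chromosome 1, and their values went apart. IFI44 had 33.6, 37.1 and 45.8 CPM in DMSO and 48.0, 43.5 and 47.4 CPM in erianin, with a log2 fold change of 0.25 ± 0.13 (SE, edgeR adjusted p = 0.22). IFI44L had 6.36, 5.54 and 7.38 CPM in DMSO and 3.57, 4.86 and 4.94 CPM in erianin, without overlap, with a log2 fold change of -0.53 ± 0.18 (SE, edgeR adjusted p = 0.0931). The difference between the 2 genes was not tested. LGALS3BP, a secreted glycoprotein that binds galectins, had 320, 317 and 298 CPM in DMSO and 253, 262 and 257 CPM in erianin. Each erianin library was lower, with a log2 fold change of -0.28 ± 0.06 (SE, edgeR adjusted p = 0.0295), short of the fold required for a call. On the TPM scale LGALS3BP had -0.08 (limma adjusted p = 0.539), and in edgeR its adjusted p was 0.0917 to 0.143 when any library other than DMSO replicate 3 was left out. IFI27 had 48, 21 and 15 counts in DMSO and 58, 49 and 56 in erianin, with DMSO replicate 1 near the erianin libraries. Its log2 fold change was 0.65 ± 0.48 (SE, edgeR adjusted p = 0.402), and 1.46 (adjusted p = 0.0348) without DMSO replicate 1. IFI35 and EPSTI1 had log2 fold changes of 0.15 and 0.23. XAF1, a pro-apoptotic interferon target, had 0 counts in 4 libraries and 1 and 2 counts in erianin replicates 2 and 3, all under the floor of 3 counts.

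**Figure D4:**
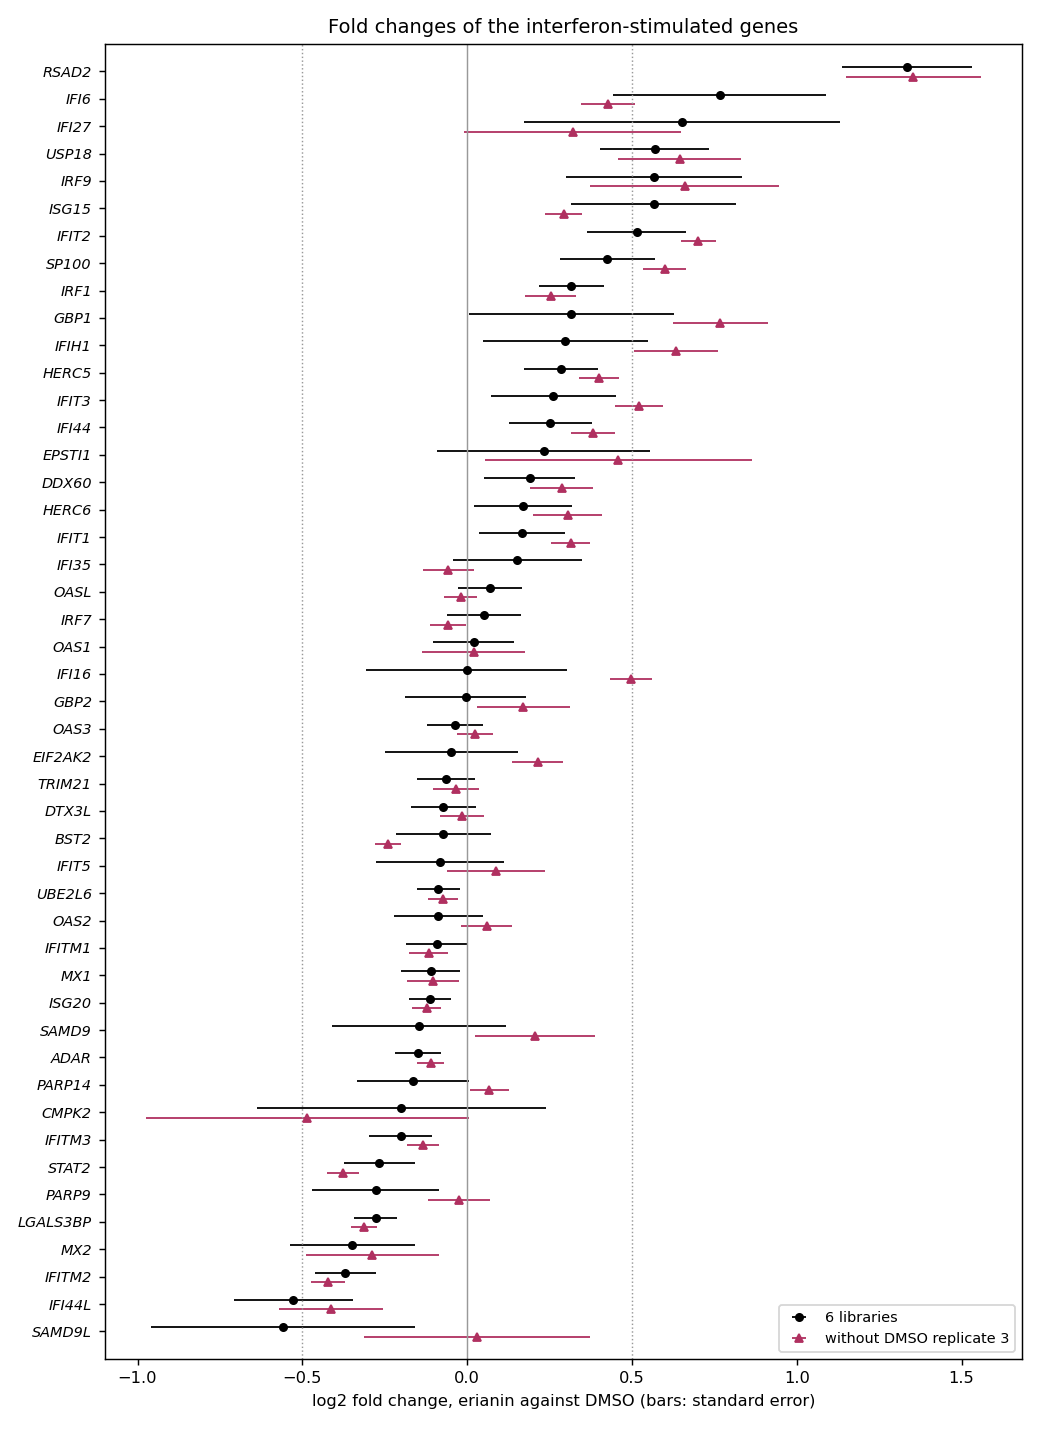
Log2 fold change (erianin against DMSO) of each tested gene of the set with its standard error, from all 6 libraries (black circles) and without DMSO replicate 3 (red triangles), ordered by the first. Of the 47 genes drawn, RSAD2 lies farthest right in the fit of all libraries, near 1.33, while GBP1, IFIH1, IFI16 and SAMD9L move right and ISG15 and IFI6 move left without that library. Dotted lines mark the fold required for a call. TRIM22, tested only without that library, is not drawn.

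The position of DMSO replicate 3 within the set followed base composition. It was the highest DMSO library in 30 of the 47 genes (63.8%) and the lowest in 13 (27.7%), against 44.7% and 43.0% of all tested genes. The 30 genes had a median transcript GC content of 43.6% and the 13 one of 56.5%. Across the 47 genes, the deviation of DMSO replicate 3 from the other DMSO libraries had a Pearson r of -0.735 with GC content, a description over genes that share their libraries. Over 12686 genes it was -0.527. The median coefficient of variation of the 47 genes was 17.3% in DMSO and 6.74% in erianin. The spread tied to DMSO replicate 3 was not limited to the set. Over all tested genes, edgeR's biological coefficient of variation was 0.139 with that library and 0.0421 without it.

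**Figure D5:**
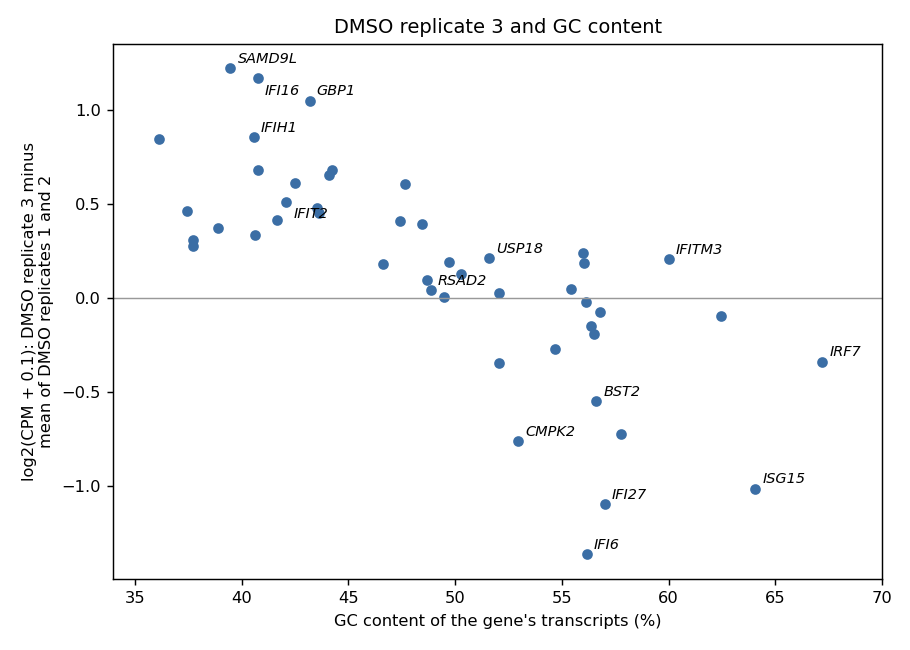
Deviation of DMSO replicate 3 from the mean of DMSO replicates 1 and 2, as a difference in log2(CPM + 0.1), against the GC content of each gene's transcripts in percent; each point is 1 of the 47 tested genes. Genes low in GC, such as SAMD9L, IFI16 and GBP1, lie above 0, and ISG15, IFI27 and IFI6 lie below it.

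Without DMSO replicate 3, 8 of 48 tested genes of the set were called higher (16.7%), against 11.4% of all genes, and 0 lower by edgeR, against 6.11%. The 8 were IFIH1, IFIT2, IFIT3, RSAD2, GBP1, TRIM22, SP100 and USP18. TRIM22, tested there from few counts, had the highest log2 fold change, 1.75 ± 0.75 (SE, edgeR adjusted p = 0.0463). At an unadjusted p under 0.05 in that fit, 19 genes were higher and 8 lower, against 29.8% and 29.5% of all genes, and the median log2 fold change of the 48 was 0.08, beside 0.02 over all genes. When each library's trend on GC content was removed with all 6 libraries kept, RSAD2, ISG15 and USP18 were called higher and IFI44L lower, against 5.97% and 3.56% of all genes. With both steps together, RSAD2, IRF9, GBP1, USP18 and IFI6 were called higher and IFI44L lower, against 8.46% and 3.93%. In each of these fits, RSAD2 and USP18 were called higher.

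Genes of the pathway outside the set were counted from a list of 41, of which 40 were found and 30 tested. SOCS1 was called higher (3.33% of the 30, against 5.37% of all tested genes) and MAVS lower (3.33%, against 3.36%), each in all 17 alternative fits. SOCS1, a feedback inhibitor of JAK kinases and itself a STAT target, had 26, 31 and 28 counts in DMSO and 86, 85 and 92 in erianin. It rose from 0.974 ± 0.0857 to 2.53 ± 0.097 CPM (SD, n = 3), with a log2 fold change of 1.38 ± 0.18 (SE) and an adjusted p of 0.00504 in edgeR. MAVS is the mitochondrial adaptor through which MDA5 and RIG-I signal to interferon genes. It had 469, 485 and 484 CPM in DMSO and 282, 286 and 274 CPM in erianin with no overlap. It fell with a log2 fold change of -0.77 ± 0.06 (SE, edgeR adjusted p = 0.00105).

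STAT3 had a log2 fold change of 0.29 (edgeR adjusted p = 0.0286), and TRIM25, a ubiquitin ligase that also acts on RIG-I, had -0.42 (edgeR adjusted p = 0.00972), both short of the fold required. In edgeR, the adjusted p of STAT3 was 0.0865 to 0.139 when any library other than DMSO replicate 3 was left out, and that of TRIM25 was 0.0578 to 0.0735 when an erianin library was. On the TPM scale the log2 fold change of STAT3 was 0.47 (limma adjusted p = 0.00773) and that of TRIM25 -0.22 (limma adjusted p = 0.0645).

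Ligand transcripts had low counts or none. IFNB1, which encodes interferon beta, had 38, 20 and 48 counts in DMSO and 76, 60 and 64 in erianin, higher in every erianin library, with a log2 fold change of 0.65 ± 0.34 (SE, edgeR adjusted p = 0.246). Without DMSO replicate 3 it passed the call, at 0.88 (edgeR adjusted p = 0.0187), as did TLR3, a sensor of endosomal double-stranded RNA, at 1.33 (adjusted p = 0.0417). TLR3 had only 4, 8 and 20 counts in DMSO and 22, 14 and 20 in erianin. With all libraries its log2 fold change was 0.58 (edgeR adjusted p = 0.483). With the GC offset and without DMSO replicate 3 neither passed the call (edgeR adjusted p = 0.0754 for IFNB1 and 0.105 for TLR3). IFNL1, a type III interferon and the most abundant ligand per length at 18.6 TPM, had 70, 69 and 78 counts in DMSO and 89, 84 and 91 in erianin, with a log2 fold change of 0.03. IFNA1, IFNW1 and IFNG were listed at 0 counts in every library, as were the DNA sensor CGAS and its partner STING1, which allows at most 0.123 CPM in the shallowest library. The receptor genes gave no call among 5 tested. Of these, IFNAR2 had only 16, 15 and 7 counts in DMSO and 13, 14 and 17 in erianin. Of its exonic bases, 44.2% are shared with another annotated gene, AP000295.1, on the same strand, so its count is uncertain. IFNGR2, the most abundant receptor gene per length, had 75.2, 72.8 and 80.0 CPM in DMSO. It had 65.5, 66.3 and 67.6 CPM in erianin (log2 fold change -0.19, edgeR adjusted p = 0.123). JAK1, the kinase shared by these receptors, had a log2 fold change of -0.03, and the genes of the other roles most abundant per length by mean TPM over the 6 libraries, TICAM1, IRF2 and PTPN1, had 0.04, -0.06 and 0.02. TICAM1 and MAVS were close on that measure, at 102 and 101 TPM.

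The fold changes of genes with and without an ISRE core overlapped. Among the tested genes of the set with a promoter entry, the 27 with a core had a median log2 fold change of -0.05, from -0.53 for IFI44L to 1.33 for RSAD2. The 12 without one had a median of 0.01, from -0.56 for SAMD9L to 0.57 for IRF9.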

How the data were processed

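Total RNA of 6 libraries (3 DMSO, 3 erianin) was sequenced. The study's methods name the BGISEQ-500 platform, while the labels name Illumina library protocols. One table deposited by the authors holds unnormalized counts per gene. The other table deposited by the authors holds TPM, which they computed per gene length and library total, whose columns sum to 59.1% to 78.3% of their nominal total. The lowest sum was that of DMSO replicate 3, and the other columns summed to 72.6% to 78.3%. The submitters' processing notes list fastp 0.23.2, STAR 2.7.10, featureCounts 2.0.1, StringTie 2.2.1 and the builds GRCh38 and hg38, without roles or order. The annotation and the strand setting of the counting are not given in the sources used here, so overlapping genes, antisense genes and paralogs may carry each other's reads.

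Of the 65807 rows, 26480 carry no gene identifier and hold 0.00385% to 0.00515% of the counts, and these were left out. Counts were fitted for all genes in edgeR 4.0.16 under R 4.3.3 (TMM factors, filterByExpr by group, quasi-likelihood test), and Benjamini-Hochberg adjustment ran over all 12821 genes tested. Both thresholds, 0.05 for the adjusted p and 0.5 for the size of the log2 fold change, are those of the study. CPM are counts scaled to library size with the TMM factors, and ± gives the SD or, for fold changes, the SE derived from the quasi-likelihood F statistic. The labels do not say whether replicates came from separate cultures, so p-values measure the spread between these libraries, which may be technical. Depth was 25776301 to 34107727 counts per library, and a count of 0 allows up to 3 counts, as counting error only.

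Alternatives were DESeq2 1.42.0, RLE and upper-quartile factors, other low-count filters, limma 3.58.1 on log2(TPM + 1) or log2(TPM + 0.1), kept to genes whose mean TPM reached 1, and on the former without that filter, a GC-content offset (loess, span 0.5, from GENCODE 29 transcripts), the replicate block, other fold thresholds and each library left out in turn. The GC offset together with DMSO replicate 3 left out was chosen after seeing the data. The genes and lists were chosen with earlier results of these data known. Values per library are given for called genes, the most abundant gene and the largest change of each role, the IFITM genes and the set's transcription factors, and those of other genes were chosen after their values were seen. Some genes of these lists are not reported here. On simulated counts edgeR recovered 198 of 200 changed genes among 12798, with 2 unchanged genes called. That run checked the fit on simulated counts only. How many changes of the size seen in the set would be recovered from the real libraries, where DMSO replicate 3 stood apart, was not tested. Tables and figures used pandas 2.3.3 and matplotlib 3.10.9 under Python 3.11.15.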

Additional observations from a re-analysis of the deposited data

How the results depend on the processing

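The count of interferon-stimulated genes called higher with erianin, 1 with all libraries, depended most on which libraries entered. Leaving out each library in turn gave 0 to 8 higher and 0 to 0 lower, with 8 without DMSO replicate 3, 2 without DMSO replicate 1 (RSAD2 and IFI27) and 0 without erianin replicate 1 or 3, where RSAD2 missed the threshold at adjusted p of 0.0525 and 0.0515. Of all genes, 11.4% were higher without DMSO replicate 3, 3.31% without DMSO replicate 1, and 1.42% without erianin replicate 1 and without erianin replicate 3. The count higher was 3 with DESeq2 or the GC offset, 2 with upper-quartile factors, 4 in limma on log2(TPM + 1) with or without the filter, 5 on log2(TPM + 0.1), and 5 with the GC offset and without DMSO replicate 3. In the same order, the shares of all genes called higher were 6.65%, 5.97%, 6.41%, 9.41% with and 5.86% without the filter, 10.3% and 8.46%. The count lower was 1 (IFI44L) with DESeq2, with the GC offset, and with that offset and without DMSO replicate 3. In that order, 4.14%, 3.56% and 3.93% of all genes were called lower. With no fold threshold the count lower was 2 (IFITM2 and LGALS3BP), against 7.69% of all genes. For the other pathway genes, 1 higher and 1 lower became 1 to 3 higher and 1 to 1 lower when each library was left out. Without DMSO replicate 3, the 3 higher were 9.68% of the 31 tested, against 11.4% of all genes. The 1 lower in that fit was 3.23%, against 6.11%. Over all genes the leave-one-out shares ran from 1.33% to 11.4% higher and from 0.975% to 6.11% lower. The pathway genes were 2 higher in the 3 TPM fits, with the GC offset and with that offset without DMSO replicate 3. The shares of all genes called higher in these fits are those given above for the set. With no fold threshold 3 were higher and 2 lower, against 7.22% and 7.69% of all genes. In the TPM fit without a filter 2 were lower, against 0.487% of all genes. At a log2 fold change over 1, 0 were lower, and the share of all genes at that fold was not counted.

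The median log2 fold change of the set was 0.17 in limma on log2(TPM + 1), 0.21 on log2(TPM + 0.1) and 0.16 with the former left unfiltered. The median of all genes was then 0.18, 0.20 and 0.12, so the TPM scale shifted all genes, and called genes split 1098 higher to 94 lower in the first, 822 to 299 with upper-quartile factors and 688 to 431 in the fit reported. The replicate block called the same set gene (1 higher, 0 lower) and the same pathway genes, while over all genes it called 384 higher and 281 lower. It changed no other call named here. Libraries with the same number did not deviate together (r = 0.00183, 0.0313 and -0.0301). With 3 libraries per group and DMSO replicate 3 standing apart, these values cannot decide whether the numbers pair libraries.

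Sign changes were counted for 35 genes only. Others of the set, not counted, changed sign without DMSO replicate 3. Examples are IFI16 (-0.0014 to 0.50), SAMD9L (-0.56 to 0.03) and EIF2AK2 (-0.05 to 0.21). Of 591 pairs of a counted gene and a setting, 31 changed sign, in 10 genes, none of them called with all libraries. In the TPM fits, in the order above, the values were 0.0019, 0.0019 and 0.0019 for IFITM3, 0.13, 0.13 and 0.13 for DTX3L, 0.11, 0.11 and 0.11 for IFITM1, 0.0059, 0.0060 and 0.0059 for IFNGR2, 0.18, 0.18 and 0.18 for JAK1, and 0.14, 0.14 and 0.14 for IRF2. JAK1 was 0.026 with upper-quartile factors, and PTPN1 was -0.00099 without a low-count filter. With the GC offset and without DMSO replicate 3, IFITM3 was 0.0084 and JAK1 0.12. When each library was left out in turn, OASL ran from -0.020 to 0.12, IRF7 from -0.057 to 0.11, IFNL1 from -0.085 to 0.13, JAK1 from -0.11 to 0.12, IRF2 from -0.16 to 0.044 and PTPN1 from -0.0066 to 0.037. The cause of these changes was not tested. Genes with few counts (XAF1, TRIM22, CMPK2, EPSTI1) are limited by depth.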
